A study of Mus musculus with 12 samples.

Results

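The 81 genes described here rose between E12.5 and E15.5 in the mouse embryonic cortex and then held their level to E18.5. They were chosen from the authors' log2 expression values by a rule on the stage means. A gene, read through its brightest probe detected on all 4 E15.5 arrays, belongs to the set if its E15.5 mean exceeded its E12.5 mean by at least 1 (a 2-fold change or more) and its E18.5 mean lay within 0.25 of its E15.5 mean in either direction. The rule kept 81 of 8630 measured genes (0.939%). Of the 506 genes that rose by at least 1 in the early interval (5.86% of those measured), 81 (16%) then held their level, 382 (75.5%) rose further by more than 0.25, and 43 (8.5%) fell by more than 0.25. Both changes therefore chose the set, and they are given below as a description with no test.

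Total RNA from embryonic cortex was hybridized to 12 Illumina mouse BeadChips, 4 at each of E12.5, E15.5 and E18.5, which are embryonic days of gestation. The study describes its wild-type mice as C57BL/6J, and no group carried a treatment or an allele of its own. The design gives total RNA from 4 embryos at each stage, and the labels number the arrays of a stage as replicates 1 to 4. Nothing in the labels says whether the embryos of a stage shared a litter, so all spreads are between these arrays, and their number limits the precision.

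Cortical neurons are born from progenitors that line the ventricle, migrate outward into the cortical plate, extend axons and dendrites, and later form synapses. The transcription factors, adhesion molecules and cytoskeletal proteins of a newborn neuron are switched on soon after it leaves the cell cycle, whereas many channels, receptors and synaptic proteins accumulate as it matures. Whole cortex mixes all of these cells with progenitors, glia, blood vessels and blood, and in such bulk RNA fewer cells of a type and less RNA per cell cannot be told apart.

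**Figure D1:**
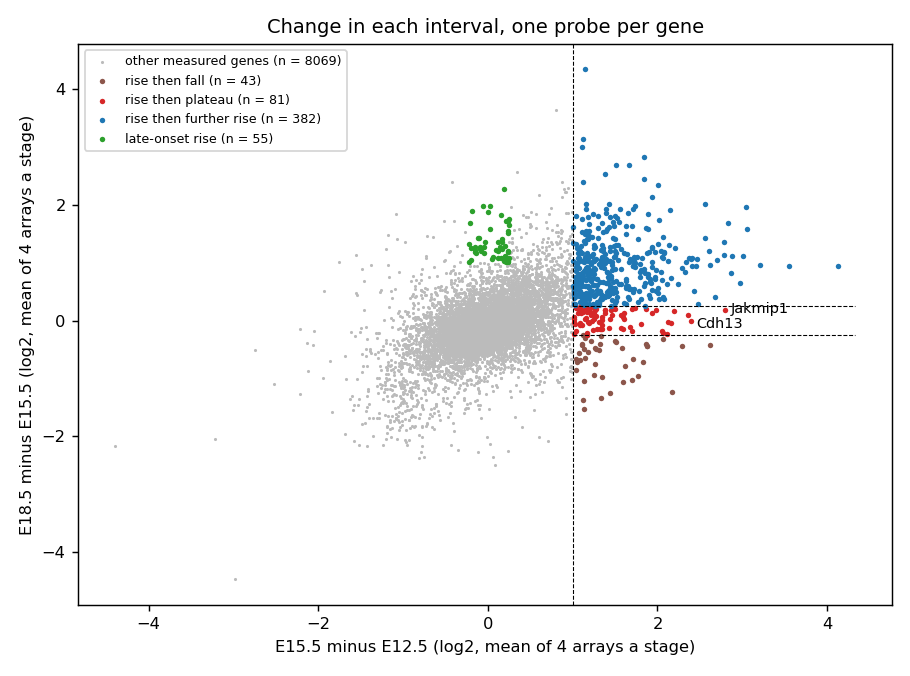
Change in log2 value between E12.5 and E15.5 (horizontal axis) and between E15.5 and E18.5 (vertical axis) for 8630 genes, each point being the difference of 2 means of 4 arrays. The 81 genes of the set (red) lie right of the dashed line at 1 and between the dashed lines at -0.25 and 0.25, the 382 genes that rose further lie above them and the 43 that fell lie below.

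RefSeq promoter windows show what lies upstream of 3 of these genes. They are printed because each gene is a leading neuronal member of the set with 1 annotated start, and each window carries the E-box CAGATG (or CATCTG on the other strand), the DNA word that NeuroD-type factors are known to bind, which is of interest because Neurod2 is itself a member. Each sequence runs 5′ to 3′ on the strand of its gene, covers the 250 bases before the start site on build GRCm38.p6, and has the E-box in capitals. Rgs4 lies on the minus strand at chr1:169747643-169747892, Serpini1 on the plus strand at chr3:75557243-75557492, and Neurod2 on the minus strand at chr11:98329646-98329895.
Rgs4: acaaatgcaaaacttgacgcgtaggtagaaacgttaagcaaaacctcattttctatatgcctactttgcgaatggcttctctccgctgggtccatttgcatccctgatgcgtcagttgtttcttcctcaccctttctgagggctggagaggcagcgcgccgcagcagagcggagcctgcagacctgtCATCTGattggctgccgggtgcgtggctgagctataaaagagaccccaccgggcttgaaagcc
Serpini1: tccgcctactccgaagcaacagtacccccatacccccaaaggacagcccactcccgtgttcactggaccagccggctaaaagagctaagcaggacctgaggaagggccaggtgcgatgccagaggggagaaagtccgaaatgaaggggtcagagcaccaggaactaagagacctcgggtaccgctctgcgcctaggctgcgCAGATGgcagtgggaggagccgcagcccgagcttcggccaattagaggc
Neurod2: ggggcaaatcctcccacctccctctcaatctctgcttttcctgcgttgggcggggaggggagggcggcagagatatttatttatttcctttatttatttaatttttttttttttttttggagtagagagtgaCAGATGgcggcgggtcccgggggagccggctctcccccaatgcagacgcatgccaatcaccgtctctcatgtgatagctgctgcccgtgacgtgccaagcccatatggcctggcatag
Counted from the start site, the first base of the box lies at -63 in Rgs4, -49 in Serpini1 and -118 in Neurod2.

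Of the 81 genes, 59 matched the RefSeq table, with 89 windows that reach from 250 bases before each start to 50 after it. CAGATG stood on either strand of 16.9% of these windows, against 11.1% of the 9130 windows of measured genes and 17.2% of all 32851 windows in the table. The related E-box CAGCTG stood in 19.1% of the set's windows, 14.4% of those of measured genes and 16.3% of all, and the general form CANNTG, which includes both, in 69.7%, 62.8% and 72.3%. For the nuclear factor I family, to which the member Nfix belongs, the short site TTGGCA stood in 11.2% of the set's windows, 10.8% of those of measured genes and 14.1% of all. A TATA box (TATAAA) stood in 7.87% of the set's windows, against 6.69% of those of measured genes and 13.6% of all. The short cyclic AMP response element TGACG was less frequent, in 22.5% of the set's windows, 32.2% of those of measured genes and 20.8% of all. Its full form TGACGTCA stood in 0 of the 89 windows, against 3.32% of those of measured genes and 1.79% of all. A ratio of observed to expected CpG of at least 0.6 was found in 59.6% of the set's windows, against 73.6% of those of measured genes, while the median GC content was 61.3% in both. These are descriptions of letters, and no binding was measured here.

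As a set, the 81 genes stood 1.27 higher at E15.5 against E12.5 by the median (2.42-fold), with a range of 1.01 to 2.80 (up to 6.96-fold). Between E15.5 and E18.5 they moved by a median of 0.06, with a range of -0.24 to 0.24, and 50 of 81 lay above 0 and 31 below. The later median depended on the scaling: it was 0.19 when arrays were scaled by their medians only, with 29 of 81 genes over 0.25, and 0.14 with cyclic loess, with 17 over 0.25, while the median of all measured genes was 0.06 and -0.00 on these scales against -0.07 on the authors'. The rise was at least 2 for 9 genes and under 1.5 for 57. The later change was smaller than its own standard error in 23 of 81 genes, and that standard error had a median of 0.075. The values of all 4 E15.5 arrays lay above those of all 4 E12.5 arrays in 81 of 81 genes, beside a background of 31.4% of all measured genes, and since the rule used this interval the count adds nothing to it. E15.5 and E18.5 values overlapped in 63 of 81 genes and did not in 18 (22.2%), beside no overlap in 60.5% of all measured genes. The rule also limited this interval, so this count adds nothing to it either. Of the 18 members without overlap, 12 had every E18.5 array above every E15.5 array, among them Xpr1, Tsc22d1 and Mfge8, and 6 had every E18.5 array below, namely Cnih3, Nsmf, Galnt17, Dpysl4, Lemd1 and Epha3.

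The set was brighter than the measured genes in general, with a median E15.5 level of 10.06 against 9.04 for all 8630 genes. Detection, a probe's p-value against negative control beads being under 0.01, was reached on all 4 E12.5 arrays by 66 of the 81. Nrip3 was detected on 0 E12.5 arrays, and Rgs4, Ppp1r1b, Cnih3, Scrg1 and Mgll on 1 of 4, so their E12.5 values lie near the background and give only an upper bound there. The deposited log2 values carry no background correction, which compresses changes of dim probes. With background-corrected values of the same probes the rise had a median of 1.55 (1.09 to 3.47) and the later change a median of 0.07, and 73 of 81 genes still met the rule.

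The edges of the set are close to their neighbors. Just inside the threshold on the rise lay Kcnip3, Nacad and Inpp5k at 1.01 to 1.02, and just outside it Mien1, Rasgrf1 and Sema6d at 0.98 to 0.99. On the upper edge of the plateau Rps6ka5, Sfxn3 and Mkrn1 had later changes of 0.24, 0.23 and 0.22, while Nfe2l3, Hpca and Rab33a had 0.25, 0.25 and 0.26 and fell outside. On the lower edge Khdrbs2, Ppp1r1b and Gsg1l had -0.24, -0.23 and -0.23 and were kept, while Tmem50b, Rftn2 and Acot1 had -0.26, -0.26 and -0.27 and were not.

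The E12.5 library labelled replicate 4 stood apart from the other 3 E12.5 arrays. On the first principal component of all 12 arrays, which held 79% of the variance, E12.5 replicates 1 to 3 scored -88.2, -89.8 and -91.6, replicate 4 scored -53.4, and the E15.5 arrays scored between -8.89 and 7.39. In the set, replicate 4 was the highest E12.5 array in 81 of 81 genes and lay below every E15.5 array in 81 of 81. Across all measured genes it was the highest E12.5 array in 29.4%, and in the 55 genes that moved by at most 0.25 early and rose by at least 1 late it was so in 12. The other early risers shared this trait, with replicate 4 the highest E12.5 array in 382 of 382 genes that rose further and 43 of 43 that fell later. Expressed as a share of the way from the mean of replicates 1 to 3 to the E15.5 mean, replicate 4 lay at 24.5% to 74.2% (median 50.1%) in the 81 genes. The same position had a median of 48.9% in the 382 genes that rose further and 54.3% in the 43 that fell later. The source of this difference was not tested.

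**Figure D2:**
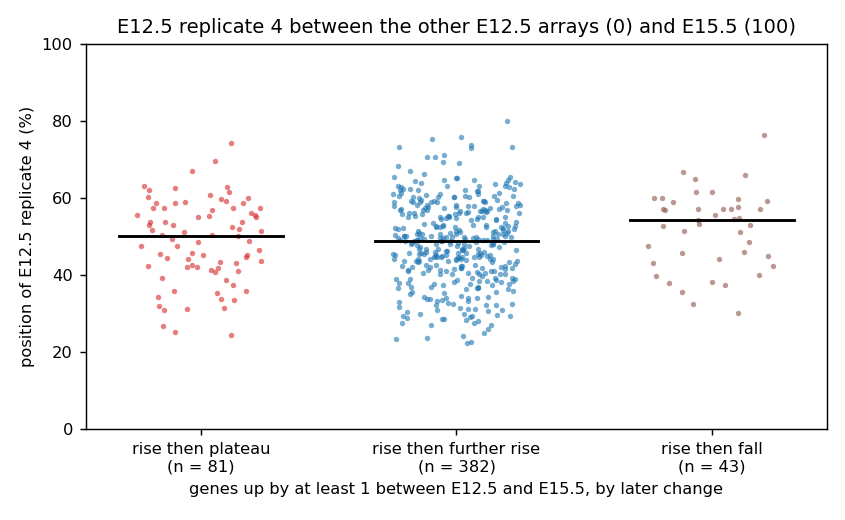
Position of E12.5 replicate 4 for each gene (point), as a percentage of the distance from the mean of E12.5 replicates 1 to 3 (0) to the E15.5 mean (100), with the median as a black line. The genes that held their level, rose further or fell after E15.5 all have replicate 4 near the middle, with medians of 50.1%, 48.9% and 54.3%.

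Replicate 4 accounts for most of the spread of the set at E12.5. The SD of the 4 E12.5 arrays had a median of 0.371 over the 81 genes, and 0.0986 without replicate 4, against 0.0935 at E15.5 and 0.0928 at E18.5. The median log2 value over the 81 genes was 8.39, 8.37, 8.32 and 9.23 on the E12.5 arrays, 10.00, 10.08, 10.11 and 10.03 on the E15.5 arrays, and 10.04, 10.13, 10.03 and 10.14 on the E18.5 arrays. Without replicate 4 the rise was 1.10 to 3.32 with a median of 1.43 (2.69-fold, up to 9.99-fold), all 81 genes were kept, and 18 more met the rule, 99 in all. Replicate 4 was the highest E12.5 array in all 81 genes, so leaving it out can only enlarge the rise of the same probe. That the 81 genes were kept therefore adds nothing.

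**Figure D3:**
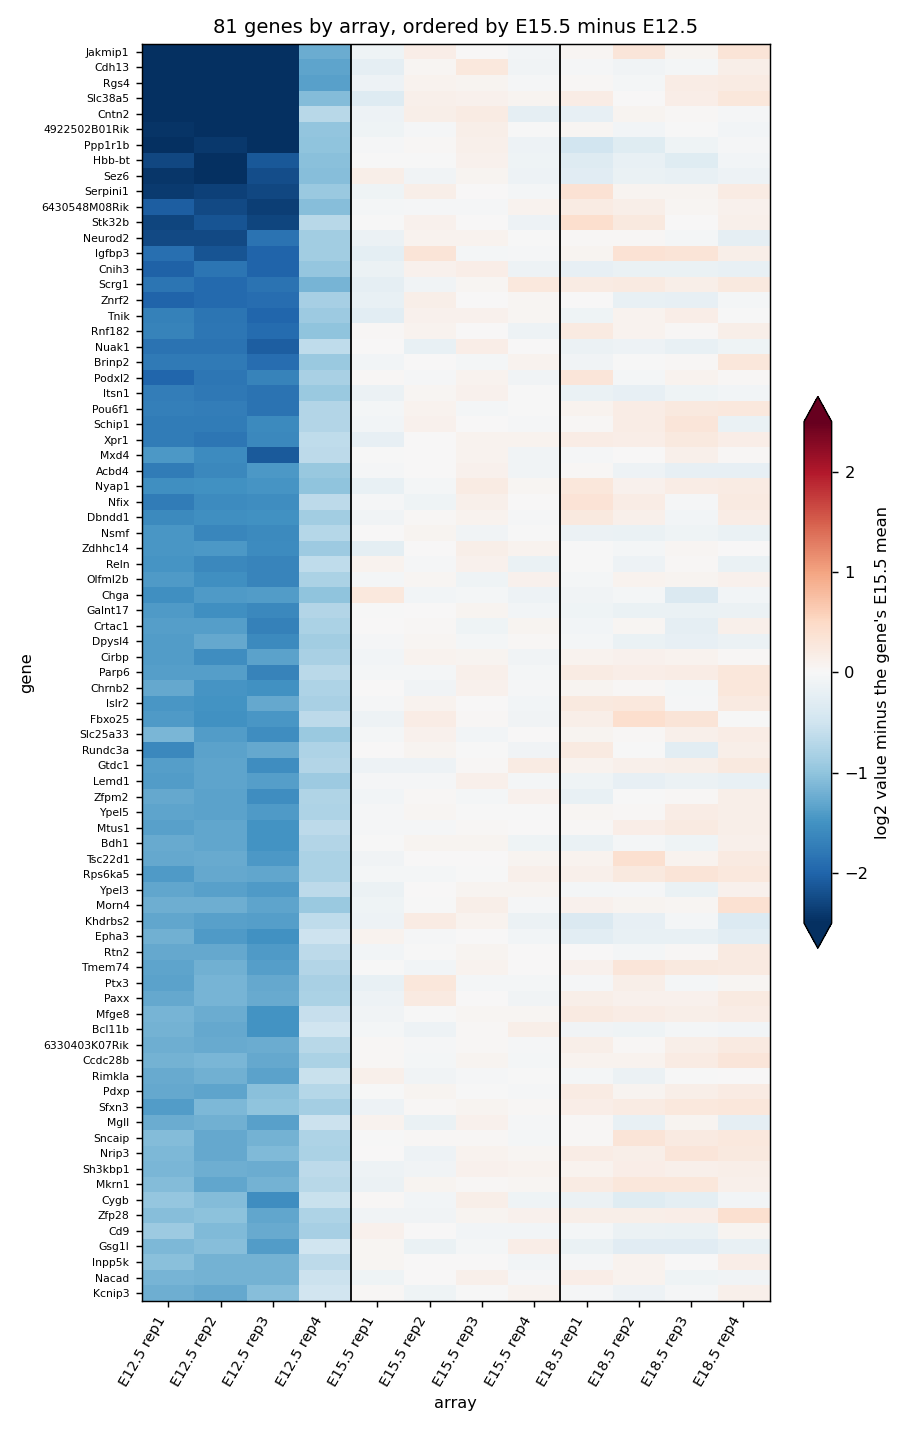
Log2 value of each of the 81 genes (rows, ordered by E15.5 minus E12.5) on each of 12 arrays (columns, in order of stage), minus the gene's own E15.5 mean. E12.5 replicates 1 to 3 are the lowest in every row, E12.5 replicate 4 lies between them and E15.5, and the E15.5 and E18.5 columns are close to 0.

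Transcription factors and regulators made up 8 of the 81 genes, with rises of 1.04 to 1.81. Neurod2, a basic helix-loop-helix factor that drives differentiation of excitatory cortical neurons, read 10.23, 10.22, 10.63 and 11.61 at E12.5, 12.33, 12.56, 12.57 and 12.47 at E15.5, and 12.52, 12.51, 12.43 and 12.26 at E18.5. It stood at 12.48 ± 0.11 at E15.5 against 10.67 ± 0.65 at E12.5 (SD, n = 4 each), a rise of 1.81 (3.5-fold), and changed by -0.05 afterwards. Its 3 lower E12.5 arrays were well below replicate 4, no E12.5 array reached an E15.5 one, and the E15.5 and E18.5 arrays overlapped.

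Nfix, a nuclear factor I protein that acts in the switch of radial glia to differentiation and in neurons and glia later, was among the brightest members and read 11.84, 12.02, 12.03 and 12.93 at E12.5, 13.55, 13.49, 13.70 and 13.60 at E15.5, and 13.92, 13.77, 13.56 and 13.80 at E18.5. It rose by 1.38 and then moved by 0.18, and its E15.5 and E18.5 arrays overlapped through E18.5 replicate 3. Bcl11b (CTIP2), which specifies subcerebral projection neurons of the deep layers, read 11.16, 11.07, 10.85 and 11.84 at E12.5, 12.29, 12.21, 12.38 and 12.49 at E15.5, and 12.25, 12.23, 12.29 and 12.28 at E18.5. Its rise was 1.11 and its later change -0.08, with the 4 E18.5 arrays inside the range of the E15.5 arrays.

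The other five regulators were Pou6f1, a POU-domain factor, Mxd4, a Max dimerization partner that opposes Myc, Zfpm2, a GATA cofactor, Tsc22d1, a TSC22-domain protein, and the zinc-finger gene Zfp28. Pou6f1 rose by 1.5 and Mxd4 by 1.44, and Zfp28 had the smallest rise of the group (1.04) and one of the largest later changes (0.21).

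The other transcription factors of postmitotic cortical neurons give the setting for Neurod2, Nfix and Bcl11b. This family and those that follow were tested gene by gene with limma on background-corrected values, with Benjamini-Hochberg adjustment over all tested probes and a threshold of adjusted p under 0.01. Across all 10662 tested genes, 24.2% were higher at E15.5 against E12.5 and 21.7% were lower, and 19.8% were higher at E18.5 against E15.5 and 23.4% were lower. Higher calls were 52.7% of all calls in the early interval and 45.9% in the later, and 65.4% and 58.0% when arrays were scaled by their medians only. A gene higher at E15.5 and then not past the threshold was found in 1223 of the 10662 (11.5%), a call pattern that does not show that the level held.

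Of 25 tested postmitotic neuron transcription factors, 17 were higher at E15.5 against E12.5 and 0 lower, with a median difference of 0.63 against -0.005 over all tested genes. At E18.5 against E15.5, 6 were higher, 5 lower and 14 not past the threshold, with a median of 0.09 against -0.06. Progenitor markers moved over the same stages. Of 11 apical progenitor markers 1 was higher and 8 were lower at E15.5 against E12.5 (median -0.87), and 0 were higher and 8 were lower at E18.5 against E15.5 (median -1.06). Their summed level was 21232 to 23688 on the E12.5 arrays, 16150 to 18425 on those of E15.5 and 9832 to 10848 on those of E18.5. Of 5 intermediate progenitor markers 2 were higher and 0 were lower early, and all 5 were lower late. Their part in the changes of the neuronal families and of the 81 genes was not tested. Among the postmitotic neuron transcription factors, the 5 lower calls at E18.5 against E15.5 fell to 2 without E18.5 replicate 4 and to 2 with cyclic loess scaling. The 3 largest early rises outside the set belonged to Pou3f1 (2.76 ± 0.39 SE, limma adjusted p = 5.4e-05), Myt1l (2.69 ± 0.38 SE, adjusted p = 5.09e-05) and Mef2c (2.37 ± 0.27 SE, adjusted p = 1.04e-05), and at E18.5 Mef2c stood a further 2.43 ± 0.27 (SE) higher by the limma fit (adjusted p = 5.36e-06).

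Within the nuclear factor I family, whose other members were picked out after their values were seen, all were read on the same background-corrected scale. Nfix differed by 0.18 between E18.5 and E15.5, while Nfia differed by -0.64 ± 0.11 (SE, limma adjusted p = 0.000322) and Nfib by -0.43 ± 0.10 (SE, limma adjusted p = 0.00282). Nfic differed by -0.46 ± 0.12 (SE, limma adjusted p = 0.00691) in that interval, a call that was lost under median scaling and cyclic loess (adjusted p = 0.104 and 0.021), as was that of Nfib under cyclic loess (adjusted p = 0.0137). Under median scaling Nfix itself differed by -0.02. On the authors' scale the other Nfix probes detected on all E15.5 arrays moved later by 0.13, -0.005 and -0.40, so the reading of Nfix depends on the probe. The difference between Nfix and its relatives was not tested.

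Adhesion, guidance and secreted proteins were the largest group, 16 of the 81, with rises of 1.12 to 2.39. Cdh13 (T-cadherin), a cadherin anchored in the membrane by lipid and with no cytoplasmic domain, read 7.08, 6.99, 7.18 and 8.51 at E12.5, 9.60, 9.89, 10.09 and 9.75 at E15.5, and 9.80, 9.74, 9.79 and 9.98 at E18.5. It had the second largest rise of the set, 2.39 (5.26-fold), and a later change of -0.01. E12.5 replicate 4 was more than 1 above the other E12.5 arrays, and the E18.5 arrays all lay within the range of the E15.5 arrays.

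Cntn2 (TAG-1), an immunoglobulin-type adhesion molecule of early axons, read 9.09, 8.94, 8.81 and 10.92 at E12.5, 11.48, 11.75, 11.82 and 11.38 at E15.5, and 11.41, 11.67, 11.64 and 11.57 at E18.5. It rose by 2.16 and then moved by -0.04, and of all 81 genes it had E12.5 replicate 4 farthest along the way to E15.5, at 74.2%. Its 4 E18.5 arrays lay within the range of its E15.5 arrays. Another probe for Cntn2 that passed the detection filter, dimmer and undetected at E12.5, rose by 1.04 and moved later by -0.02.

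In the contactin and L1-type family, 14 genes were tested, of which 7 were higher and 1 was lower at E15.5 against E12.5, and 7 were higher and 1 was lower at E18.5 against E15.5. The lower call of the later interval was lost under median scaling and cyclic loess and without any of E15.5 replicates 1 and 2 and E18.5 replicates 2 and 4. Only Cntn2 of the 10 measured family members met the rule. By the limma fit Chl1 was 2.75 ± 0.43 (SE) higher at E15.5 against E12.5 (adjusted p = 0.000113), and Cntn1 1.93 ± 0.18 higher (adjusted p = 3.44e-06), and both were higher again at E18.5, by 2.13 ± 0.43 (adjusted p = 0.000888) and 2.03 ± 0.18 (adjusted p = 7.63e-07). Cntn2 on the same scale differed by -0.04 between E18.5 and E15.5.

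Reln, the secreted glycoprotein of Cajal-Retzius cells and later of interneurons that guides migrating neurons, read 10.50, 10.36, 10.32 and 11.35 at E12.5, 12.07, 11.95, 12.08 and 11.82 at E15.5, and 11.96, 11.86, 11.997 and 11.81 at E18.5. It rose by 1.34 (2.54-fold) and then moved by -0.07, and the E18.5 arrays fell within the E15.5 range except for replicate 4, just below it. Summed linear levels of the 6 tested Cajal-Retzius markers, Reln included, were 3477 to 4824 on the E12.5 arrays, 5802 to 6430 on those of E15.5 and 5177 to 5949 on those of E18.5. Since Reln is itself in this sum, the sum is no separate measure of Cajal-Retzius cells. The median difference of the 6 markers was -0.28 at E15.5 against E12.5 and -0.50 at E18.5 against E15.5. Of these 6 markers 2 were higher and 3 were lower at E15.5 against E12.5 by limma, and Ebf2, a defining marker, was detected on 4 of 4 arrays at E12.5 and on 0 at E15.5 and E18.5. The sum of 7 interneuron markers was 539 to 1582 on the E12.5 arrays, 2851 to 4125 on those of E15.5 and 7138 to 7974 on those of E18.5. Of the 7, 6 were detected on 1 of 4 E12.5 arrays and Lhx6 on 0, and all 7 were higher at E15.5 against E12.5 by limma, and 3 were higher again at E18.5 (7 without E12.5 replicate 4, 5 on the authors' scale, and 2 without any of 7 other arrays). The part of these cells in the change of Reln was not tested.

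Epha3, a receptor for A-type ephrins in axon guidance, read 9.43, 9.21, 9.11 and 10.11 at E12.5, 10.72, 10.60, 10.63 and 10.57 at E15.5, and 10.36, 10.45, 10.45 and 10.36 at E18.5. It rose by 1.16 and then moved by -0.22, and each E18.5 array lay below each E15.5 array although the gene met the rule. Of 16 tested Eph receptors and ephrins, 6 were higher and 3 were lower at E15.5 against E12.5, and 5 were higher and 5 were lower at E18.5 against E15.5 (3 higher without E15.5 replicate 4). Ephb6 had the largest early difference outside the set, 1.26 ± 0.10 (SE, limma adjusted p = 1.45e-06). Of the 22 measured semaphorins, plexins, netrin receptors, Slits and Robos 0 met the rule on all arrays and 1 did without E12.5 replicate 4, while 16 of the 30 tested were higher at E15.5 against E12.5 and 1 lower, and 12 were higher and 4 were lower at E18.5 against E15.5 (2 lower with cyclic loess).

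Serpini1 (neuroserpin), a secreted inhibitor of tissue plasminogen activator made by neurons, read 7.71, 7.76, 7.83 and 9.19 at E12.5, 10.00, 10.26, 10.11 and 10.05 at E15.5, and 10.46, 10.17, 10.18 and 10.31 at E18.5. It rose by 1.98 and then moved by 0.17. Sez6, a transmembrane protein of dendrites that was first found through seizures, read 7.87, 7.82, 8.10 and 9.25 at E12.5, 10.45, 10.22, 10.39 and 10.19 at E15.5, and 10.04, 10.15, 10.13 and 10.19 at E18.5, a rise of 2.05 and a later change of -0.19. E12.5 replicate 4 lay clear of the other 3 in both genes, and in Sez6 the E18.5 arrays overlapped only the lower edge of the E15.5 arrays.

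Igfbp3, a secreted protein that binds insulin-like growth factors, read 7.35, 7.08, 7.23 and 8.37 at E12.5, 8.99, 9.56, 9.20 and 9.20 at E15.5, and 9.30, 9.60, 9.56 and 9.38 at E18.5, a rise of 1.73 and a later change of 0.22. Its E15.5 and E18.5 arrays overlapped, with E15.5 replicates 1 and 2 as the extremes of that stage. Of 11 tested genes of the insulin-like growth factor system, 5 were higher and 4 were lower at E15.5 against E12.5, and 4 were higher and 3 were lower at E18.5 against E15.5. By the limma fit Igfbp5 differed by -1.29 ± 0.09 (SE) at E15.5 against E12.5 (adjusted p = 4.93e-07) and Igfbp7, which vessels also make, by 1.37 ± 0.17 (adjusted p = 1.79e-05).

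Islr2 (Linx), a transmembrane protein of growing axons, was the brightest adhesion member and read 11.10, 11.06, 11.27 and 11.75 at E12.5, 12.52, 12.64, 12.57 and 12.48 at E15.5, and 12.80, 12.81, 12.52 and 12.78 at E18.5. It rose by 1.26 and moved by 0.17, and 3 of its E18.5 arrays lay above every E15.5 array while replicate 3 lay within them. The remaining members of the group were Scrg1 (1.70), Brinp2, the sialomucin Podxl2, the matrix protein Olfml2b, the granule protein Chga (chromogranin A), Crtac1, the pentraxin Ptx3 and Mfge8, which bridges phosphatidylserine to integrins. These 8 rose by 1.12 to 1.70 and moved later by -0.14 to 0.21.

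Kinases, phosphatases and intracellular signaling proteins gave 11 genes, with rises of 1.02 to 2.36. Rgs4, which speeds GTP hydrolysis by Gi and Gq subunits and so shortens signaling through their receptors, read 6.59, 6.57, 6.48 and 7.88 at E12.5, 9.11, 9.34, 9.30 and 9.21 at E15.5, and 9.28, 9.20, 9.43 and 9.44 at E18.5. It rose by 2.36 (5.14-fold) and then moved by 0.10. The probe was detected on 1 of 4 E12.5 arrays, and without replicate 4 the rise was 2.69.

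Ppp1r1b (DARPP-32), an inhibitor of protein phosphatase 1 that is best known from striatal neurons, read 6.66, 6.75, 6.64 and 8.15 at E12.5, 9.14, 9.19, 9.29 and 9.03 at E15.5, and 8.68, 8.85, 9.05 and 9.14 at E18.5. It rose by 2.11 and moved later by -0.23, near the lower edge of the rule, and its 4 E18.5 arrays spread more widely than the E15.5 arrays (SD 0.20 against 0.11). Like Rgs4 it was detected on 1 of 4 E12.5 arrays.

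Stk32b, a serine/threonine kinase, rose by 1.86, Tnik, a kinase of the Wnt and Rap2 pathways at synapses, by 1.6, and Nuak1, an LKB1-activated kinase of axon branching, by 1.6. Nuak1 moved by -0.14 after E15.5 and Stk32b by 0.20. The rest of the group were Nyap1, an adaptor of phosphoinositide 3-kinase, Nsmf (Jacob), a messenger from synapse to nucleus, the nuclear kinase Rps6ka5 (MSK1), the phosphatases Pdxp and Inpp5k, and Mgll, the lipase that breaks down the endocannabinoid 2-arachidonoylglycerol. Mgll rose by 1.09 and moved by -0.08, with detection on 1 of 4 E12.5 arrays. In the endocannabinoid system, 4 of 8 tested genes were higher and 0 were lower at E15.5 against E12.5 (1 lower without E12.5 replicate 4 or on the authors' scale), and 3 were higher and 1 was lower at E18.5 against E15.5. Cnrip1, which binds the CB1 receptor, was 2.07 ± 0.25 (SE) higher at E15.5 (limma adjusted p = 1.44e-05).

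Cytoskeletal and membrane-traffic proteins gave 10 genes, with rises of 1.07 to 2.80. Jakmip1, which binds microtubules and the GABA-B receptor, had the largest rise of the set and read 7.78, 7.51, 7.35 and 9.63 at E12.5, 10.76, 11.04, 10.89 and 10.79 at E15.5, and 10.92, 11.17, 10.94 and 11.20 at E18.5. It stood at 10.87 ± 0.12 at E15.5 against 8.07 ± 1.06 at E12.5 (SD, n = 4 each), a rise of 2.80 (6.96-fold), and moved by 0.19 afterwards. The large E12.5 SD came from replicate 4, which lay 62.8% of the way to E15.5, and without it the rise was 3.32.

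Dpysl4, a collapsin response mediator protein (CRMP) that links guidance signals to microtubules, read 10.45, 10.57, 10.25 and 10.98 at E12.5, 11.82, 11.89, 11.80 and 11.87 at E15.5, and 11.79, 11.68, 11.63 and 11.69 at E18.5. It rose by 1.28 and then moved by -0.14, each E18.5 array lying below each E15.5 array. The other CRMP genes, picked out after their values were seen, rose in both intervals by the limma fit. Crmp1 was 1.48 ± 0.16 (SE) higher at E15.5 against E12.5 (adjusted p = 8.04e-06) and 0.81 ± 0.16 higher at E18.5 against E15.5 (adjusted p = 0.000842), Dpysl3 1.43 ± 0.16 and 1.0 ± 0.16, and Dpysl5 1.33 ± 0.16 and 0.73 ± 0.16 higher. Dpysl2 was 0.37 ± 0.11 and 0.59 ± 0.11 higher, calls that were lost under median scaling (adjusted p = 0.0114 and 0.0366). Dpysl4 on the same scale differed by -0.15 in the later interval, and its difference from the others was not tested.

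Across the axonal and neuronal cytoskeleton, 18 of 20 tested genes were higher and 0 were lower at E15.5 against E12.5, and 14 were higher and 0 were lower at E18.5 against E15.5, with median differences of 1.38 and 0.76. Higher at E15.5 and then not past the threshold were 5 of the 20 (3 without E12.5 replicate 4), and Dpysl4 was the only one of the 20 measured to meet the rule. The tau gene Mapt was 3.20 ± 0.42 (SE) higher at E15.5 against E12.5 (limma adjusted p = 2.91e-05) and 1.59 ± 0.42 higher at E18.5 against E15.5 (limma adjusted p = 0.0058).

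Itsn1, a scaffold that couples the endocytic coat to actin, read 7.49, 7.43, 7.38 and 8.28 at E12.5, 9.06, 9.27, 9.32 and 9.20 at E15.5, and 9.06, 9.01, 9.10 and 9.15 at E18.5. It rose by 1.57 and moved by -0.13, and E15.5 replicate 1 lay among the E18.5 arrays. Of 20 tested genes of clathrin-mediated endocytosis, 12 were higher and 1 was lower at E15.5 against E12.5, and 9 were higher and 1 was lower at E18.5 against E15.5, both lower calls being lost under median scaling and the early one also without any of 8 single arrays. Its paralog Itsn2 differed by -0.15 ± 0.11 (SE, limma adjusted p = 0.267) in the early interval and was 0.39 ± 0.11 higher in the later one (limma adjusted p = 0.00714). The other members were Schip1, an ankyrin-associated protein of the axon initial segment, Rundc3a, the microtubule-associated Mtus1, Morn4, the reticulon Rtn2, the synuclein-binding protein Sncaip and the endocytic adaptor Sh3kbp1. Their rises ran between 1.07 and 1.46.

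Receptors, channels and transporters gave 7 genes, with rises of 1.01 to 2.19. Slc38a5, a glutamine and amino acid transporter, read 6.98, 6.95, 6.85 and 8.40 at E12.5, 9.17, 9.62, 9.60 and 9.56 at E15.5, and 9.68, 9.50, 9.66 and 9.76 at E18.5. It rose by 2.19 (4.57-fold) and moved by 0.16, with E15.5 replicate 1 below the other 3 arrays of its stage. Blood vessels and glia can also carry this gene. The summed level of 9 endothelial markers was 3383 to 3909 on the E12.5 arrays, 3583 to 3858 on those of E15.5 and 3990 to 4371 on those of E18.5, so that its E12.5 and E15.5 ranges overlapped. That of 5 pericyte markers was 453 to 509 on the E12.5 arrays, 681 to 735 at E15.5 and 755 to 836 on the E18.5 arrays. By limma 6 endothelial markers were higher and 1 was lower at E15.5 against E12.5, and 4 pericyte markers were higher and 0 were lower. The 6 became 4 without E12.5 replicate 1 or without E15.5 replicate 1, 3 or 4. The part of these cells in the changes of Slc38a5 and Igfbp3 was not tested.

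Among synaptic receptors, Cnih3 and Gsg1l are auxiliary proteins of AMPA-type glutamate receptors, Cnih3 slowing and Gsg1l damping their currents. Cnih3 read 6.66, 6.85, 6.69 and 7.72 at E12.5, 8.53, 8.79, 8.85 and 8.55 at E15.5, and 8.48, 8.51, 8.51 and 8.5 at E18.5, a rise of 1.70 and a later change of -0.18, with the 4 E18.5 arrays close to each other and each below every E15.5 array. Gsg1l read 8.10, 8.16, 7.84 and 8.74 at E12.5, 9.27, 9.06, 9.19 and 9.40 at E15.5, and 9.06, 8.95, 8.95 and 9.04 at E18.5, a rise of 1.02 and a later change of -0.23. The probe of Cnih3 was detected on 1 of 4 E12.5 arrays and that of Gsg1l on all 4.

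Of 16 tested AMPA receptor subunits and auxiliary proteins, 9 were higher and 1 was lower at E15.5 against E12.5 (0 lower under median scaling), and 6 were higher and 1 was lower at E18.5 against E15.5. Higher at E15.5 and then not past the threshold were 7 of the 16, and 4 without E12.5 replicate 4. The subunit Gria1 was 3.32 ± 0.47 (SE) higher at E15.5 (limma adjusted p = 5.27e-05) and Gria3 2.49 ± 0.38 higher (limma adjusted p = 0.000104), and their later differences of 1.09 ± 0.47 and 0.95 ± 0.38 did not pass (limma adjusted p = 0.0659 and 0.0509) but did on the authors' scale (limma adjusted p = 0.00531 and 0.00695).

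Chrnb2, the beta subunit of the main neuronal nicotinic acetylcholine receptor, read 7.73, 7.52, 7.48 and 8.22 at E12.5, 9.01, 8.91, 9.12 and 8.97 at E15.5, and 9.07, 9.04, 8.95 and 9.29 at E18.5. It rose by 1.26 and moved by 0.08, its ranges at the later stages overlapping. Among the 4 tested nicotinic subunits it was the only one higher at E15.5, and Chrna4, its usual partner, differed by 0.20 ± 0.15 (SE, limma adjusted p = 0.292) early and was 2.19 ± 0.15 higher at E18.5 against E15.5 (limma adjusted p = 7.21e-08). Kcnip3 (KChIP3, also known as DREAM and calsenilin), a calcium-binding partner of Kv4 channels, read 7.66, 7.59, 7.81 and 8.39 at E12.5, 8.91, 8.77, 8.88 and 8.96 at E15.5, and 8.84, 8.75, 8.85 and 9.0 at E18.5. It had the smallest rise of the set, 1.01, and a later change of -0.02. Of 18 tested voltage-gated potassium channel genes and Kv channel-interacting proteins, 10 were higher and 0 were lower at E15.5 against E12.5, and 10 were higher and 1 was lower at E18.5 against E15.5, where the lower call was lost under median scaling and cyclic loess and without any of 8 single arrays, and became 2 without E12.5 replicate 2 or 4. Among the genes outside the set Kcna6 had the largest early rise, 2.60 ± 0.29 (SE, limma adjusted p = 1e-05).

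Xpr1, a phosphate exporter, and the tetraspanin Cd9 complete the group. Xpr1 rose by 1.45 and moved by 0.18, and Cd9 rose by 1.03 and moved by -0.07. Of 17 tested tetraspanins, 3 were higher and 3 were lower at E15.5 against E12.5 (1 lower under median scaling or without any of 8 single arrays), and Cd9 was the only one of 14 measured that met the rule.

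**Figure D4:**
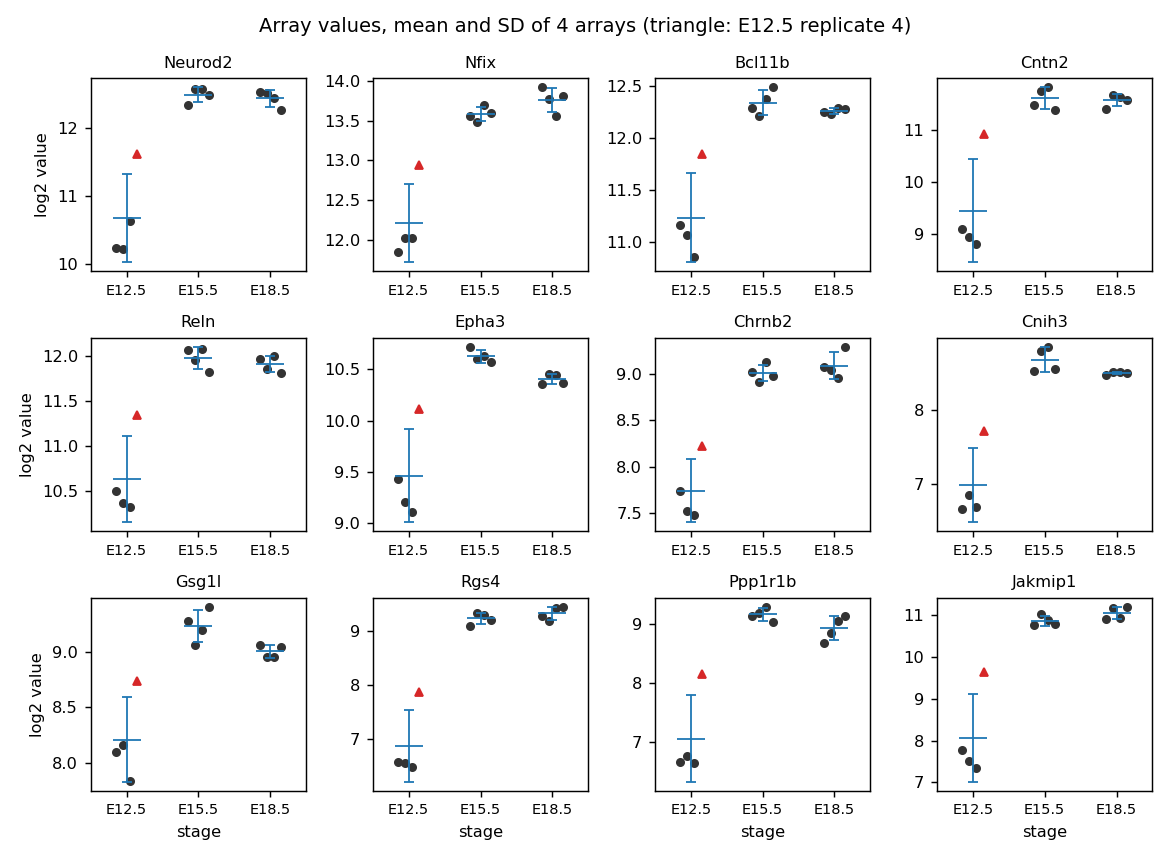
Log2 values (authors' scale) of 12 genes of the set on every array, by stage, with the mean and SD of 4 arrays as blue bars and E12.5 replicate 4 as a red triangle. In each panel replicate 4 lies between the other E12.5 arrays and the E15.5 arrays, as in Jakmip1, where it read 9.63 beside 7.35 to 7.78.

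None of the 21 measured presynaptic vesicle and release proteins was in the set. Of 26 tested, 19 were higher and 1 was lower at E15.5 against E12.5, and 16 were higher and 2 were lower at E18.5 against E15.5, with medians of 0.98 and 0.92, and the early lower call became 0 under median scaling and 2 without E12.5 replicate 4. Cplx1 (complexin 1) was 3.10 ± 0.40 (SE) higher at E15.5 (limma adjusted p = 2.57e-05). Of the 26, 5 were higher at E15.5 and then not past the threshold (4 without E12.5 replicate 4). Over all 14 families, 198 genes were measured and 16 met the rule, beside 0.939% of all measured genes. The families were chosen with earlier results of these data known, so this count describes that choice.

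**Figure D5:**
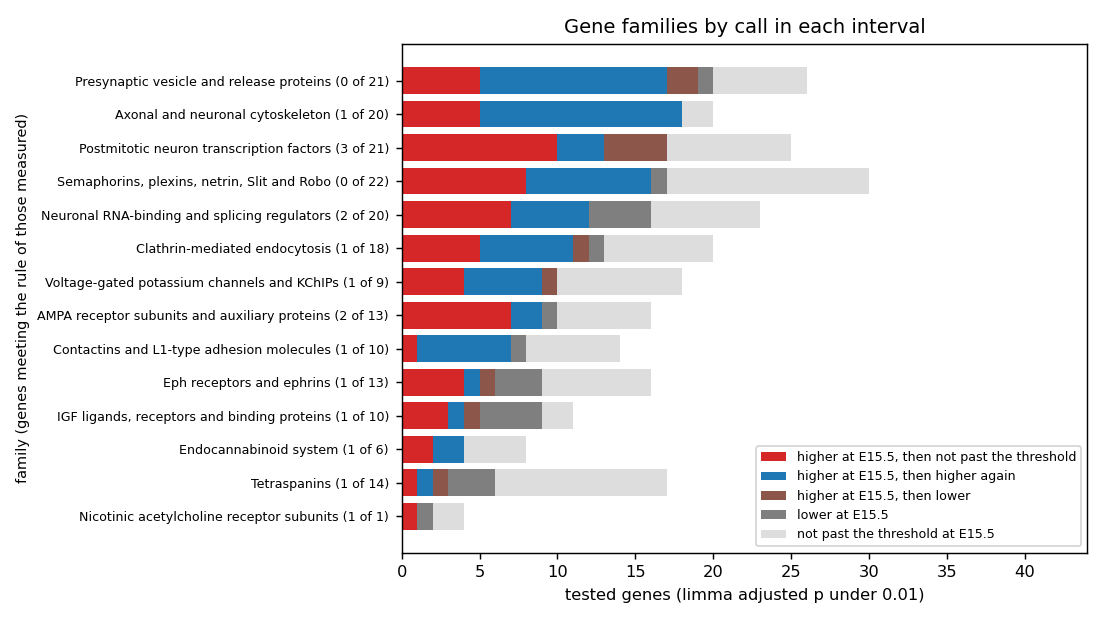
Tested genes of 14 families (bars) by their limma call (adjusted p under 0.01) in each interval, with the number meeting the rule of those measured beside each name. Of 25 postmitotic neuron transcription factors 10 were higher at E15.5 and then not past the threshold (red), against 5 of 26 presynaptic proteins, for which 12 were higher again at E18.5 (blue). The 10 became 7 without E12.5 replicate 4 and 13 without E18.5 replicate 4, and the 5 became 4 and 7. Over all tested genes 11.5% had the red pattern.

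RNA-binding proteins contributed 2 genes. Cirbp, a cold-inducible RNA-binding protein, read 8.92, 8.78, 9.0 and 9.51 at E12.5, 10.25, 10.42, 10.40 and 10.24 at E15.5, and 10.41, 10.44, 10.42 and 10.36 at E18.5, a rise of 1.28 and a later change of 0.08. Khdrbs2 (SLM1), a neuronal splicing regulator of neurexins, read 8.68, 8.61, 8.61 and 9.35 at E12.5, 9.85, 10.18, 10.06 and 9.83 at E15.5, and 9.61, 9.77, 9.94 and 9.64 at E18.5, a rise of 1.17 and a later change of -0.24, the lowest of the set. E18.5 replicate 3 of Khdrbs2 lay within the E15.5 range and the other 3 below it. By the limma fit its paralog Khdrbs3 was higher in both intervals, by 0.51 ± 0.08 (SE, adjusted p = 0.000128) and 1.08 ± 0.08 (SE, adjusted p = 1.38e-07), and Khdrbs1 differed by 0.17 ± 0.09 and -0.18 ± 0.09, with neither past the threshold. Of 23 tested neuronal RNA-binding and splicing regulators, 12 were higher and 4 were lower at E15.5 against E12.5, and 8 were higher and 2 were lower at E18.5 against E15.5. The 8 higher calls became 5 without E15.5 replicate 1 or without E18.5 replicate 2 or 4. Rbm3, the other cold-inducible protein of the list, differed by -1.64 ± 0.17 (SE) at E15.5 against E12.5 (limma adjusted p = 6.23e-06).

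Ubiquitin ligases and enzymes of protein or glycan modification gave 8 genes, with rises of 1.07 to 1.67. The RING ligase Znrf2 rose by 1.67 and moved by -0.11, and Rnf182, a brain-enriched ligase, rose by 1.6 and moved by 0.12. The others were the ligase components Fbxo25 and Mkrn1, the palmitoyltransferase Zdhhc14, the glycosyltransferases Galnt17 and Gtdc1, and Parp6 of the ADP-ribosyltransferase family. Mitochondrial and metabolic proteins gave 5 genes (Acbd4, Slc25a33, Bdh1, Rimkla and Sfxn3), with rises of 1.09 to 1.43. Sfxn3, a mitochondrial serine transporter of the sideroflexin family, lay near the upper edge with a later change of 0.23.

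Globins gave 2 genes. Hbb-bt, an adult beta-globin of red cells, was the brightest member and read 12.18, 11.67, 12.34 and 13.41 at E12.5, 14.46, 14.46, 14.57 and 14.36 at E15.5, and 14.14, 14.28, 14.15 and 14.38 at E18.5. It rose by 2.06 and moved by -0.22. Its near-identical neighbor Hbb-bs can cross-hybridize, so the 2 cannot be told apart with certainty, and 3 other probes annotated to Hbb-bt that passed the filter moved by -0.35, -1.02 and -0.28 in the later interval. The sum of 7 tested erythroid markers, Hbb-bt included, was 35570 to 53167 on the E12.5 arrays, 73604 to 76264 on those of E15.5 and 55254 to 65455 on those of E18.5, while the embryonic globin Hbb-y differed by -3.03 ± 0.30 (SE) at E15.5 against E12.5 (limma adjusted p = 4.35e-06). Of the 7, 4 were higher at E15.5 against E12.5 and 3 were lower, and 0 were higher at E18.5 against E15.5 and 3 lower. Since Hbb-bt is itself in the erythroid sum, that sum is no separate measure of red cells. The part of red cells in the change of Hbb-bt was not tested. Cygb, cytoglobin, which is made by neurons and fibroblasts rather than red cells, rose by 1.04 and moved by -0.18.

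Of the remaining members, 9 were placed in no role group, with rises of 1.01 to 1.38, and 3 carry clone names and were counted only. The 9 were Dbndd1, Lemd1, the Yippee-like genes Ypel3 and Ypel5, the lysosomal protein Tmem74, the DNA repair factor Paxx, Ccdc28b, Nrip3 and Nacad. Ypel5 and Ypel3, small zinc-binding proteins, rose by 1.21 and 1.18 and moved by 0.10 and -0.03. Nrip3, the dimmest at E15.5, read 6.48, 6.32, 6.5 and 6.80 at E12.5, 7.61, 7.47, 7.68 and 7.64 at E15.5, and 7.79, 7.74, 7.90 and 7.84 at E18.5. Its E12.5 arrays were all undetected, so its rise of 1.07 is a change from background.

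Other probes for the same genes varied widely. The 81 genes had 115 other probes, of which 95 had a higher mean at E15.5 than at E12.5 and 29 rose by at least 1, with a median of 0.40 and a range of -0.19 to 2.37. Of the 115, 59 (in 40 genes) were detected on all E15.5 arrays, and since that filter keeps probes that are high at E15.5, counts over them describe only the filter's choice. All 29 of the rises of at least 1 lay among these 59, and 19 probes in 18 genes met the rule themselves. Cdh13 had 2 such probes with rises of 1.77 and 1.90 and later changes of 0.26 and 0.10. In other members a passing probe rose far less than the one the rule read, 0.40 in Ppp1r1b, 0.71 and 0.59 in Dpysl4 and 0.68 in Tnik. Nsmf had 1 at 0.16 and 1 at 1.24, and Bcl11b had other passing probes at 0.58, 0.97 and 1.10. In the later interval 46 of the 59 moved by at most 0.25. Passing probes moved further in, among others, Chga (-0.42), Nfix (-0.40), Nuak1 (-0.30), Dpysl4 (-0.29), Igfbp3 (0.33) and Tsc22d1 (0.46, after a rise of 0.29). These genes were picked out after their values were seen.

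Across the series as a whole, 15227 to 17472 of 45281 probes were detected per array, and the median signal was 86.1 to 99.3. Choroid plexus markers summed to 6937 to 19038 on the E12.5 arrays, 692 to 11976 on those of E15.5 and 440 to 510 on those of E18.5, so arrays of a stage differed in the markers of that tissue. Over the remaining marker lists, 5 of 6 astrocyte markers, 6 of 8 microglia markers (3 without E15.5 replicate 2, 3 or 4), 1 of 6 oligodendrocyte lineage markers and 1 of 2 meninges markers were higher at E15.5 against E12.5 by limma. At E18.5 against E15.5, 5 of the 6 oligodendrocyte lineage markers were higher and 0 lower, and 5 of the 6 astrocyte markers were higher and 1 lower. Only 2 of the astrocyte markers were detected on all E15.5 arrays. The summed level of the 6 was 4069 to 5242 on the E12.5 arrays, 5842 to 6749 on those of E15.5 and 3819 to 4444 on those of E18.5. The part of these cells in the changes of the 81 genes was not tested.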

How the data were processed

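The deposited scanner tables give an average signal intensity per probe and a detection p-value against negative control beads for each of 12 Illumina WG-6 v2.0 arrays, and the authors also deposited log2 values, processed with lumi (version and background setting not given in the sources used here). On each array the deposited log2 values equalled quantile-normalized log2 signals (largest difference 5.00e-09), with a median of 6.51 in every column. Scanner and value columns were matched to samples by name, with 0 columns unmapped. Of 45281 probes, 34885 had 1 gene symbol, 18 had several and 10378 had none, and 34807 were matched to RefSeq by gene ID with 0 symbols changed.

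The rule for the set was applied to the authors' log2 values. For the tests the signals were background-corrected with normexp from the detection p-values, quantile-normalized with an offset of 16 (neqc) and fitted in limma 3.58.1 (R 4.3.3) with 1 mean per stage, over the 19652 probes (43.4%) detected at p under 0.01 on at least 1 array, with Benjamini-Hochberg adjustment over these probes and a threshold of 0.01. A gene was read through its brightest probe. The fit was tested on simulated data. Tables and figures used Python 3.11.15, pandas 2.3.3, numpy 2.4.6 and matplotlib 3.10.9.

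The set, its role groups and the 14 gene families and 12 cell type marker lists were chosen with earlier results of these data known. Named by rule were members of a list, the 20 with the largest rise and those nearest each threshold, and for each list at most 3 called genes with the largest changes. Other members were named only to account for the set, and some of the genes printed by array were chosen after their values were seen. Alternatives covered the background correction, scaling, detection filter, choice of probe, thresholds, variance model, replicate block and each array left out, and the methods' t-test.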

Additional observations from a re-analysis of the deposited data

Results flagged for a closer look

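Among 4 arrays of a stage, an array was singled out when its gap to the nearest other exceeded Dixon's critical share of the whole range, which chance alone does in about 1 in 20 groups. The median over the 81 genes singled out E12.5 replicate 4, at 9.23 beside 8.32 to 8.39 on the other E12.5 arrays. The same array stood high in Cdh13 (8.51 beside 6.99 to 7.18), Rgs4 (7.88 beside 6.48 to 6.59), Slc38a5 (8.40 beside 6.85 to 6.98), Cntn2 (10.92 beside 8.81 to 9.09) and Ppp1r1b (8.15 beside 6.64 to 6.75). It also stood high in Serpini1 (9.19 beside 7.71 to 7.83), Nfix (12.93 beside 11.84 to 12.03), Khdrbs2 (9.35 beside 8.61 to 8.68) and Itsn1 (8.28 beside 7.38 to 7.49). At the later stages E15.5 replicate 1 of Slc38a5 was low, at 9.17 beside 9.56 to 9.62, and so was E18.5 replicate 3 of Islr2, at 12.52 beside 12.78 to 12.81. Over all 81 genes, 37 of 243 gene and stage groups passed this value, and in 27 of them the array was E12.5 replicate 4 standing high.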

How the results depend on the processing

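The number of genes meeting the rule was 81 and followed its thresholds, with 47 for a plateau within 0.15, 129 for a rise of at least 0.8 and 51 for a rise of at least 1.2, and 71 to 99 with each array left out. In every one of those 12 sets 57 genes remained. Median scaling moved the median of all measured genes by 0.11 in the early interval and 0.13 in the later, and 51 of the 81 genes still met the rule, beside 64 with cyclic loess and 73 with background correction. Requiring a 2-fold change as well left 1380 genes called between E15.5 and E12.5 (826 higher, 554 lower) in place of 4903 (2585 and 2318), and 1324 between E18.5 and E15.5 (740 higher, 584 lower) in place of 4609 (2115 and 2494). In the 14 families it left 89 higher and 4 lower (139 and 20 without it), and then 50 and 6 (103 and 30). Median scaling gave 1520 genes and 12 family members lower at E15.5. With each array left out, E15.5 against E12.5 gave 4261 to 5222 calls (2281 to 2648 higher, 1978 to 2574 lower; families 131 to 140 and 16 to 24), and E18.5 against E15.5 gave 3925 to 4998 (1822 to 2328 higher, 2103 to 2670 lower; families 87 to 122 and 24 to 35). The methods' t-test called 6391 and 6728 genes in the 2 intervals at its nominal threshold, and 5649 and 6157 after Benjamini-Hochberg adjustment. Same-numbered arrays of different stages had correlated deviations of -0.33 to 0.27, and differently numbered ones of -0.47 to 0.38. No pairing by number was seen, but with 4 arrays a stage these correlations cannot exclude one. With the replicate block 4477 and 4196 genes were called. The rule kept 81 genes with it, which was fixed in advance, since in this balanced design the block leaves the stage differences unchanged. Of 792 values of 36 named genes under the alternatives, 16 moved by more than the replicate spread, 14 of them with background correction. None of the 396 early differences among them changed sign, while 30 of the 396 later ones did, in 11 genes whose later change was at most 0.13 in size. The rule chose these genes for a large early and a small later change, so this contrast follows from the rule. Values of probes near the background at E12.5 have only a bound there, and 4 arrays a stage limit all spreads.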

Other observations

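The 81 genes were spread over the chromosomes, with 10 on chromosome 11 (12.3%, beside 8.34% of measured genes), 8 on chromosome 1 (9.88% beside 5.02%), 8 on chromosome 7 (9.88% beside 7.53%) and 2 on the X chromosome. No test was made of this spread.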
